A study of Mus musculus with 9 samples.

Results

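The 30 genes described here carry out cholesterol synthesis in the liver, regulate it, or move, take up and store the product. They were selected by gene symbol, with earlier results of these data known, and all 30 were found among the 54007 rows of a liver FPKM table (fragments per kilobase of gene scaled to library size). The table holds 9 RNA-seq libraries of C57BL/6 mouse liver taken at postnatal day 98, with 3 libraries in each of 3 groups. Control mice form the first group (replicates 1, 2 and 4), mice fed a high-fat diet the next (HFD, replicates 1, 2 and 3), and mice on that diet that were also gavaged with the gut bacterium *Papillibacter cinnamivorans* the last (HFD+Pc, replicates 1, 3 and 4). The mice were 6 weeks old when they were divided at random into groups of 15. The diet composition, the sex of the mice and whether HFD mice received a sham gavage are not given in the sources used here. Whether a library is 1 animal or a pool is not given either. A p-value therefore sets a difference of group means against the spread between libraries, pooled over the 3 groups, and not against a known spread between animals. Hepatocyte markers were abundant in every library, with summed levels of 46522 FPKM or more over 11 genes.

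Cholesterol is built from acetyl-CoA through mevalonate, isoprenoid diphosphates, squalene and lanosterol, and the liver is a main site of its synthesis. The transcription factor SREBP-2, encoded by *Srebf2*, turns on genes of the whole route when sterols in the endoplasmic reticulum are low. Its escort protein SCAP carries it to the Golgi for cleavage, and the INSIG proteins hold SCAP back when sterols are plentiful. Promoters of SREBP-2 target genes often pair a sterol regulatory element with sites for the co-factors NF-Y and Sp1, whose core letters are CCAAT and GGGCGG.

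Picked by their results were 5 of the genes: *Hmgcs1*, *Msmo1*, *Idi1* and *Mvk* were higher in HFD+Pc than in control, and *Npc2* was lower. No call below rests on their upstream sequences, which are shown here.
Each is the 250 bases before the annotated start, read 5′ to 3′ on the strand of the gene, from RefSeq on GRCm38.p6.
Capitals mark CCAAT on either strand (ATTGG on the strand shown) and, in *Hmgcs1* alone, the sterol element core.
Hmgcs1, chr13:119690101-119690350, plus strand: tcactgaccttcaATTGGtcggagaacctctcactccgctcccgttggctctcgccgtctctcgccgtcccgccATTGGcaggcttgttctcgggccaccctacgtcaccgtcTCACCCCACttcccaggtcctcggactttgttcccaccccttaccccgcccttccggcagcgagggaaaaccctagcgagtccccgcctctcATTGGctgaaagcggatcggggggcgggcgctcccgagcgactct
Msmo1, chr8:64733579-64733828, minus strand: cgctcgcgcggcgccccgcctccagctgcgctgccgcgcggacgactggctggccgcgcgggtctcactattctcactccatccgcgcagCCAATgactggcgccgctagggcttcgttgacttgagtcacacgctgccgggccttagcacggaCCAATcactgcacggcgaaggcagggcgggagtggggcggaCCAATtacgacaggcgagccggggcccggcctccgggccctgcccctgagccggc
Idi1, chr13:8885356-8885605, plus strand: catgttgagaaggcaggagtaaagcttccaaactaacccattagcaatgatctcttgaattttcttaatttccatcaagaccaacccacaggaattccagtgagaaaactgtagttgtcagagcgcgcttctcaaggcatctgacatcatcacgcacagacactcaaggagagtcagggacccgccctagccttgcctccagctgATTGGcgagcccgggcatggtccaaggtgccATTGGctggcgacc
Mvk, chr5:114444019-114444268, plus strand: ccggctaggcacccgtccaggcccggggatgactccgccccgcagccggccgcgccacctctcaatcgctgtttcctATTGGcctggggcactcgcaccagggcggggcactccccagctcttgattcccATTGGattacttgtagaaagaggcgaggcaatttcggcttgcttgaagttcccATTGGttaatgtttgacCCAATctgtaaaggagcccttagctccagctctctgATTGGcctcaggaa
Npc2, chr12:84773113-84773362, minus strand: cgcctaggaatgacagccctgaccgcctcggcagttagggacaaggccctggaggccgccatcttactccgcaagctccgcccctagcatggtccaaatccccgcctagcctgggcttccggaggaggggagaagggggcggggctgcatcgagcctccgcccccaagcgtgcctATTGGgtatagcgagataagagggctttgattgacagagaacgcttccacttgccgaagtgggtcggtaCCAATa

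A RefSeq promoter was matched for 24 of the 30 genes, 30 promoters in all, and 3 motifs were searched on both strands without overlap between them being excluded. The sterol element core TCACNCCAC was in 1 of the 30 promoters (3.33%), against 1.05% of 32851 promoters of the same length. It was that of *Hmgcs1*, 1 of the 24 genes, at positions -137 to -129 relative to the start. Only exact letters were counted, so variants of the element would be missed. CCAAT stood in 22 of the 30 promoters (73.3%), against 33.8% of all promoters searched, and *Mvk* held 5 copies. GGGCGG stood in 24 of the 30 promoters (80.0%), against 32.7% of all. *Npc2*, which fell, held CCAAT and GGGCGG as well, so the motifs were not limited to genes that rose. These matches describe letters in a window and show no binding.

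Differences below are between group means of log2(FPKM + 1), each with its SE, a scale on which weakly expressed genes change less than in FPKM, whereas levels are in FPKM, as mean ± SD with n = 3. They were tested with limma over 10988 genes that reached 1 FPKM in at least 3 libraries, in 1 fit of all 9 libraries, with Benjamini-Hochberg adjustment over all tested genes and a threshold of 0.05. All 30 genes entered the test, *Fdps* only through HFD replicate 3 and HFD+Pc replicates 3 and 4. In HFD against control 3 of the 30 genes rose (against 4.61% of all tested genes) and 3 fell (against 5.35%), with 9.97% of all passing in either direction. Between HFD+Pc and HFD none rose or fell by limma, where 0.628% of all tested genes passed, 0.182% higher and 0.446% lower. In that comparison 1 of the 30 had an unadjusted limma p under 0.05, against 1718 of the 10988 tested genes. There limma-voom on recovered reads called none of the 30 either, against 1.69% of its tested genes. In HFD+Pc against control 10 rose (against 11.1% of all tested genes) and 3 fell (against 11.9%), with 23.1% of all passing in either direction. The median difference over the 30 genes was 0.36, 0.20 and 0.55 in the 3 comparisons in that order, beside -0.00087, 0.0094 and 0.0083 over all tested genes. Both comparisons with control share the control libraries, and both that involve HFD share the HFD libraries, so they are not independent of each other. Within the diet groups HFD replicate 3 stood high and HFD+Pc replicate 1 low for most of these genes, and calls without single libraries are given beside the results. Where several libraries are named as left out, each was left out in turn. In bulk liver a change in the number of cells of a type cannot be told apart from a change in RNA per cell.

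**Figure D1:**
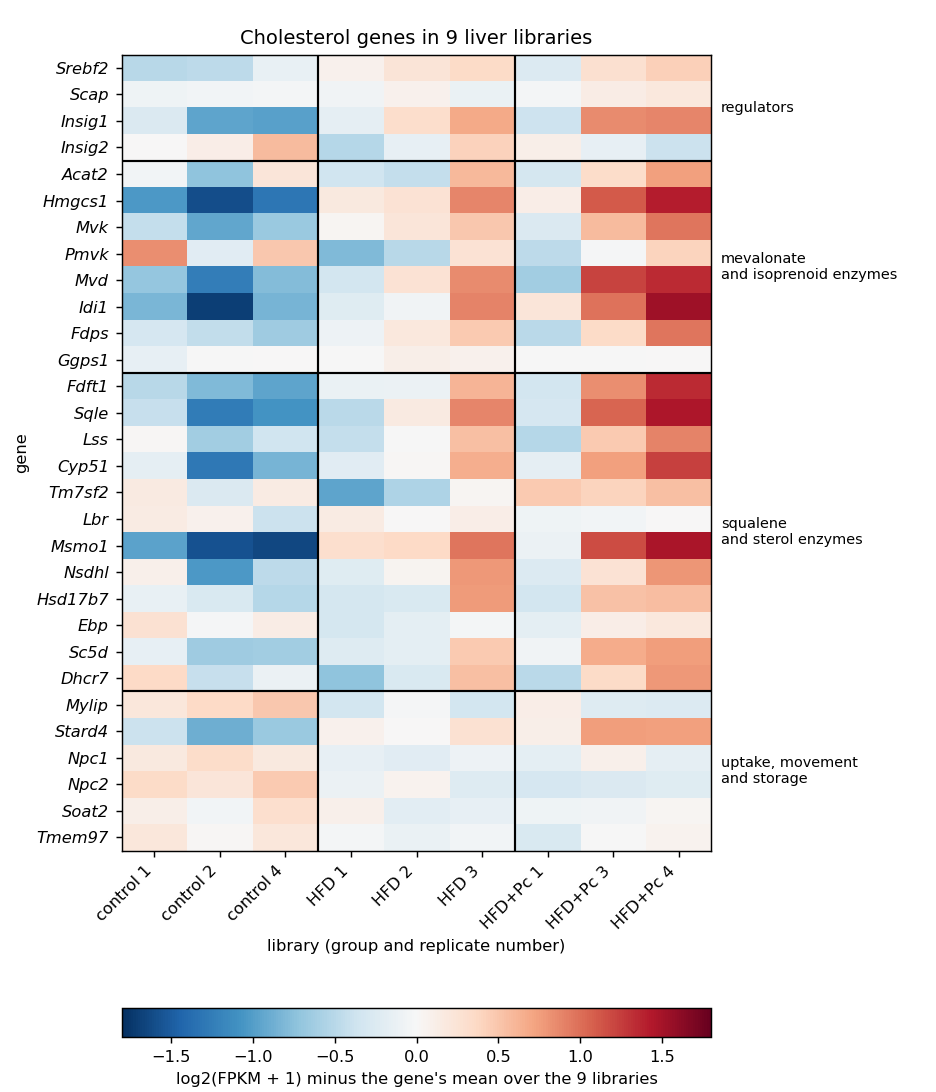
Heat map of the 30 genes (vertical axis, ordered by role) in 9 libraries (horizontal axis). Colour gives log2(FPKM + 1) minus the gene's mean over the 9 libraries, and most synthesis enzymes are high in HFD replicate 3 and HFD+Pc replicates 3 and 4 and low in control replicate 2, with HFD+Pc replicate 1 nearer to HFD replicate 1.

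Of the 4 regulators, *Insig1*, which encodes the sterol-sensitive retention protein and is itself an SREBP target, was the one that passed in a comparison. It was at 54.2, 33.1 and 32.5 FPKM in control replicates 1, 2 and 4, at 57.8, 81.5 and 105 in HFD replicates 1, 2 and 3, and at 49.96, 118 and 120.1 in HFD+Pc replicates 1, 3 and 4. HFD+Pc replicate 1 lay below control replicate 1, so those groups overlapped, whereas every HFD library lay above every control library. *Insig1* rose in HFD+Pc against control (1.18 ± 0.36, limma adjusted p = 0.0443) and did not pass in HFD against control (1.01 ± 0.36, limma adjusted p = 0.1102). The call missed the threshold when leaving out control replicates 1, 2 and 4, HFD replicate 2 and HFD+Pc replicates 3 and 4 (limma adjusted p up to 0.142). *Srebf2* was at 6.58, 6.73 and 8.77 FPKM in control, 10.3, 11.6 and 12.6 in HFD and 8.08, 12.1 and 13.5 in HFD+Pc, libraries in the same order. Its HFD libraries were all above control, at a difference of 0.59 ± 0.17 (limma adjusted p = 0.0631), and HFD+Pc differed from control by 0.53 ± 0.17 (limma adjusted p = 0.0546). The calls of *Srebf2* depended on the fit. HFD against control passed with those 2 groups alone, with a replicate block, with limma-voom on recovered reads and without HFD+Pc replicate 1 (adjusted p = 0.0369, 0.0436, 0.0216 and 0.0221, by limma). HFD+Pc against control passed with the block, with limma-voom, without control replicate 4 and without HFD+Pc replicate 1 (adjusted p = 0.0436, 0.0319, 0.0459 and 0.0101, by limma). *Insig1* passed in HFD against control without HFD+Pc replicate 1 (limma adjusted p = 0.0458). *Insig2*, the second retention protein, was far more abundant than *Insig1* in control, at 238 ± 50.6 against 39.9 ± 12.3 FPKM. Its mean was lower on the diet, at 195 ± 64.5 in HFD and 182 ± 30.9 in HFD+Pc, without passing (limma adjusted p = 0.426 and 0.283 against control). *Scap* lay between 15.5 and 19.4 FPKM over the 9 libraries, with every HFD+Pc library above control, and its difference from control had a 95% interval of -0.17 to 0.20 in HFD and -0.039 to 0.33 in HFD+Pc.

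Of the 8 mevalonate and isoprenoid enzymes, 1 rose in HFD and 3 in HFD+Pc against control, and none fell. Of all tested genes 4.61% rose in HFD and 11.1% in HFD+Pc, and 5.35% and 11.9% fell. *Hmgcs1*, the cytosolic HMG-CoA synthase that makes the substrate for mevalonate, was at 31.2, 20.7 and 25.8 FPKM in control, 73.2, 77.8 and 120.3 in HFD and 70.6, 141 and 174 in HFD+Pc. Every library on the diet lay above every control library, and HFD+Pc replicate 1 was close to HFD replicates 1 and 2. The level was 3.49 times control in HFD and 4.96 times control in HFD+Pc (differences 1.75 ± 0.32 and 2.19 ± 0.32, limma adjusted p = 0.0168 and 0.00356). The first call missed the threshold when leaving out control replicate 2 (limma adjusted p = 0.0639), and the second held whichever of the 9 libraries was left out. *Idi1*, the isomerase that makes dimethylallyl diphosphate, was at 12.7, 6.48 and 12.5 FPKM in control, 19.8, 22.2 and 43.7 in HFD and 27.1, 46.4 and 68.6 in HFD+Pc. No diet library overlapped control, and HFD+Pc replicate 4 held the highest level. *Idi1* rose in HFD+Pc against control by 2.02 ± 0.39 (limma adjusted p = 0.0088996, passing in all 9 fits without 1 library), while the HFD difference of 1.32 ± 0.39 missed the threshold (limma adjusted p = 0.0657). Pseudogenes matching *Idi1* over 22.4% to 22.6% of its transcript held at most 4.54 FPKM.

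*Mvk*, mevalonate kinase, was at 3.88, 2.44 and 3.14 FPKM in control, 5.77, 6.64 and 8.25 in HFD and 4.51, 8.81 and 11.9 in HFD+Pc. Its diet libraries all lay above control, with HFD+Pc replicate 1 the closest to it. *Mvk* rose in HFD+Pc (1.11 ± 0.28, limma adjusted p = 0.0222). That call was not held on leaving out control replicates 2 and 4 and HFD+Pc replicates 3 and 4 (limma adjusted p up to 0.0801). Its HFD difference was 0.93 ± 0.28 (limma adjusted p = 0.0678), which passed with the 2 groups alone and without HFD+Pc replicate 1 or 4 (limma adjusted p = 0.0263, 0.0191 and 0.0498). *Mvd*, the mevalonate diphosphate decarboxylase, spread more widely. It was at 2.76, 1.58 and 2.56 FPKM in control, 3.84, 6.33 and 9.98 in HFD and 2.95, 13.2 and 14.4 in HFD+Pc. Groups on the diet did not overlap control, but the differences of 1.17 ± 0.50 and 1.55 ± 0.50 had limma adjusted p = 0.165 and 0.0516. Without HFD+Pc replicate 1, which lay at 2.95 FPKM, the HFD+Pc difference of *Mvd* was 2.18 (limma adjusted p = 0.00634). That difference also passed with median-of-ratios scaling and without HFD replicate 3 (limma adjusted p = 0.0486 and 0.0486), and the HFD difference passed without HFD+Pc replicate 1 (limma adjusted p = 0.0422).

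*Pmvk*, phosphomevalonate kinase, acts between *Mvk* and *Mvd*, and its differences had the other sign. It was at 27.5, 12.9 and 21.3 FPKM in control, 8.21, 10.3 and 18.02 in HFD and 10.5, 14.8 and 20.1 in HFD+Pc, with overlapping groups (-0.72 ± 0.34 and -0.40 ± 0.34, limma adjusted p = 0.204 and 0.417). *Ggps1*, which makes geranylgeranyl diphosphate for protein prenylation, lay between 1.89 and 2.46 FPKM in all 9 libraries, with 95% intervals of -0.065 to 0.28 in HFD and -0.12 to 0.22 in HFD+Pc against control. *Acat2*, the cytosolic thiolase that joins acetyl-CoA units, ranged from 15.3 to 44.1 FPKM and did not pass in any of the 3 comparisons (lowest limma adjusted p = 0.393). Its transcript matches *Acat3* at 97.7% identity over 65.6% of its length, so reads may be shared between them. The recovered reads of *Acat3* numbered 2194, 2084 and 1940 in control, against 1188, 660 and 1394 for *Acat2*. Summed over both, reads numbered 3382, 2744 and 3334 in control, 3720, 3897 and 3813 in HFD and 3254, 4177 and 4413 in HFD+Pc. For the sum the HFD libraries lay above control and HFD+Pc overlapped it, whereas *Acat2* alone overlapped control in both. These reads are not scaled to library size, and the sum was not tested.

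*Fdps*, farnesyl diphosphate synthase, has near-identical copies elsewhere in the genome, and few reads were assigned to it. The values correspond to 26, 15 and 4 recovered reads in control, 42, 63 and 90 in HFD and 13, 77 and 158 in HFD+Pc. The pseudogene *Gm3571*, which matches *Fdps* at 98.9% identity over 76.8% of its transcript, held 227, 99 and 192 reads in control, 107, 106 and 248 in HFD and 86, 176 and 300 in HFD+Pc. These exceeded the reads of *Fdps* in every library. Summed over *Fdps*, *Gm3571*, *Gm5873* and *Gm43738*, reads numbered 283, 130 and 226 in control, 173, 199 and 396 in HFD and 128, 312 and 525 in HFD+Pc. The HFD libraries lay above control for *Fdps* alone and overlapped it for the sum, so the direction of *Fdps* is uncertain. It did not pass (limma adjusted p = 0.223 in HFD and 0.123 in HFD+Pc against control). Without HFD+Pc replicate 1 the HFD+Pc difference of *Fdps* went from 0.74 to 1.12 and passed (limma adjusted p = 0.01496). *Fdps* entered the test only through HFD replicate 3 and HFD+Pc replicates 3 and 4, so that pass adds no support for a rise.

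**Figure D2:**
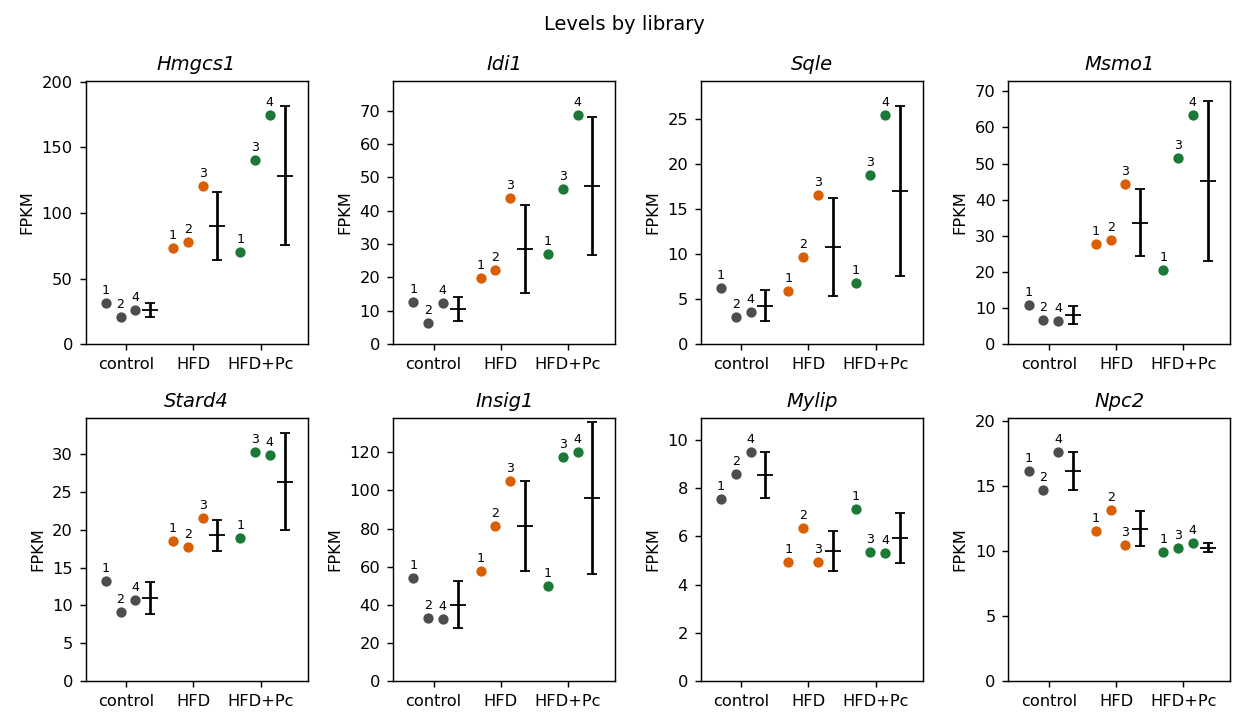
Levels in FPKM (vertical axis, from 0) of 8 genes in the 3 groups (horizontal axis). Points are libraries numbered by replicate, and bars give the group mean ± SD of 3 libraries. *Hmgcs1*, *Idi1* and *Msmo1* lie above control in every diet library, with HFD+Pc replicate 1 the lowest of its group, while *Mylip* and *Npc2* lie below control.

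Of the 12 enzymes from squalene synthesis onward, 1 rose in HFD and 5 rose in HFD+Pc against control, with none lower in either. The shares of all tested genes that rose were 4.61% and 11.1%, and those that fell 5.35% and 11.9%. *Msmo1*, the methylsterol oxidase that starts removal of the methyl groups from the fourth carbon of sterols, was at 10.9, 6.82 and 6.47 FPKM in control, 27.8, 28.8 and 44.5 in HFD and 20.5, 51.7 and 63.4 in HFD+Pc. All 6 diet libraries were above control, and the level was 4.17 times control in HFD and 5.59 times in HFD+Pc. The differences were 1.94 ± 0.38 and 2.24 ± 0.38 (limma adjusted p = 0.0207 and 0.00568). The first was not held on leaving out control replicates 1, 2 and 4 and HFD replicates 2 and 3 (limma adjusted p up to 0.0728), and the second was held in all 9 fits without 1 library. *Nsdhl* and *Hsd17b7*, the dehydrogenase and ketoreductase of the same demethylation, did not pass. *Nsdhl* was at 21.3, 9.26 and 14.1 FPKM in control, 17.04, 20.6 and 34.9 in HFD and 16.6, 24.1 and 35.2 in HFD+Pc, so control replicate 1 overlapped both diet groups. *Hsd17b7* was at 16.8, 17.2 and 36.6 FPKM in HFD and 16.5, 30.9 and 31.6 in HFD+Pc, where some libraries lay within and some above the control range of 14.5 to 19.1.

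*Sqle*, squalene epoxidase, a rate-limiting step of the sterol branch, was at 6.23, 3.003 and 3.57 FPKM in control, 5.87, 9.73 and 16.6 in HFD and 6.76, 18.8 and 25.4 in HFD+Pc. The HFD group overlapped control, and HFD+Pc did not, by the margin between control replicate 1 and HFD+Pc replicate 1. *Sqle* rose in HFD+Pc by 1.65 ± 0.48 (limma adjusted p = 0.0361), and HFD differed by 1.10 ± 0.48 (limma adjusted p = 0.171). *Fdft1*, squalene synthase, was at 16.6, 13.5 and 11.98 FPKM in control, 22.2, 22.3 and 37.3 in HFD and 18.9, 43.7 and 62.4 in HFD+Pc. It rose in HFD+Pc by 1.36 ± 0.38 (limma adjusted p = 0.0317) and its HFD difference was 0.88 ± 0.38 (limma adjusted p = 0.16998), although every diet library was above control. *Fdft1* shares a stretch of 774 bases with *Ctsb* in the annotation used for matching, so a part of its reads is uncertain. *Cyp51*, the lanosterol demethylase, was at 28.2, 12.4 and 17.4 FPKM in control, 27.3, 32.2 and 50.6 in HFD and 28.3, 53.4 and 75.6 in HFD+Pc. Its rise in HFD+Pc was 1.36 ± 0.39 (limma adjusted p = 0.0352), while HFD replicate 1 lay below control replicate 1 and HFD did not pass (0.92 ± 0.39, limma adjusted p = 0.166). *Sc5d*, the desaturase near the end of the route, was at 84.3, 59.6 and 60.2 FPKM in control, 79.4, 82.8 and 130.05 in HFD and 89.4, 149 and 159 in HFD+Pc, and rose in HFD+Pc by 0.92 ± 0.26 (limma adjusted p = 0.0333). None of these 4 HFD+Pc calls held on leaving out control replicates 2 and 4 and HFD+Pc replicates 3 and 4. Those of *Sqle* and *Fdft1* also missed the threshold on leaving out control replicate 1 or HFD replicate 2, and that of *Cyp51* on leaving out HFD replicate 2. The limma adjusted p reached 0.117 for *Sqle*, 0.1003 for *Fdft1*, 0.121 for *Cyp51* and 0.1097 for *Sc5d*.

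*Lss*, lanosterol synthase, which closes the sterol rings, ranged from 2.21 to 8.17 FPKM with overlapping groups (limma adjusted p = 0.561 in HFD and 0.251 in HFD+Pc against control). *Dhcr7*, whose enzyme makes the last reduction to cholesterol, was at 19.7, 11.1 and 13.97 FPKM in control, 8.74, 12.3 and 22.6 in HFD and 10.5, 19.5 and 26.6 in HFD+Pc. It showed the same order of libraries within the diet groups as *Hmgcs1*, and its HFD difference from control did not pass (-0.097 ± 0.38, 95% interval -0.97 to 0.77, limma adjusted p = 0.896). *Ebp*, the sterol isomerase, was the most abundant enzyme of the group in control per length, at 75.7 ± 7.52 FPKM. Its HFD libraries (55.2, 60.8 and 67.3 FPKM) were all below the control libraries (83.1, 68.1 and 75.97), at -0.31 ± 0.12 (limma adjusted p = 0.145). *Lbr*, a lamin receptor that is also a sterol reductase, lay between 1.51 and 2.63 FPKM and did not pass in any comparison (lowest limma adjusted p = 0.492).

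*Tm7sf2*, the other reductase of that step, had its highest 3 levels in the HFD+Pc libraries. It was at 31.6, 23.4 and 31.3 FPKM in control, 14.1, 18.8 and 28.7 in HFD and 39.1, 37.3 and 41.2 in HFD+Pc. HFD+Pc replicate 1 was not low here, and the HFD+Pc libraries were all above both other groups. Of the 30 genes it was the only one whose HFD+Pc libraries all lay above all HFD libraries, a count of 1 (3.33%, against 10.2% of all tested genes), and *Lbr* was the only one whose HFD+Pc libraries all lay below (against 9.56%). The difference between HFD+Pc and HFD in *Tm7sf2* was 0.96 ± 0.22 (limma adjusted p = 0.0933). Without HFD replicate 3 it was 1.22 and passed (limma adjusted p = 0.0116), the sole call of the 30 genes in that comparison under any alternative tried. The HFD difference from control then passed as well (-0.77, limma adjusted p = 0.0305). HFD+Pc differed from control in *Tm7sf2* by 0.44 ± 0.22 (limma adjusted p = 0.171), which passed with those 2 groups alone and without HFD replicate 3 (limma adjusted p = 0.0387 and 0.0495).

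**Figure D3:**
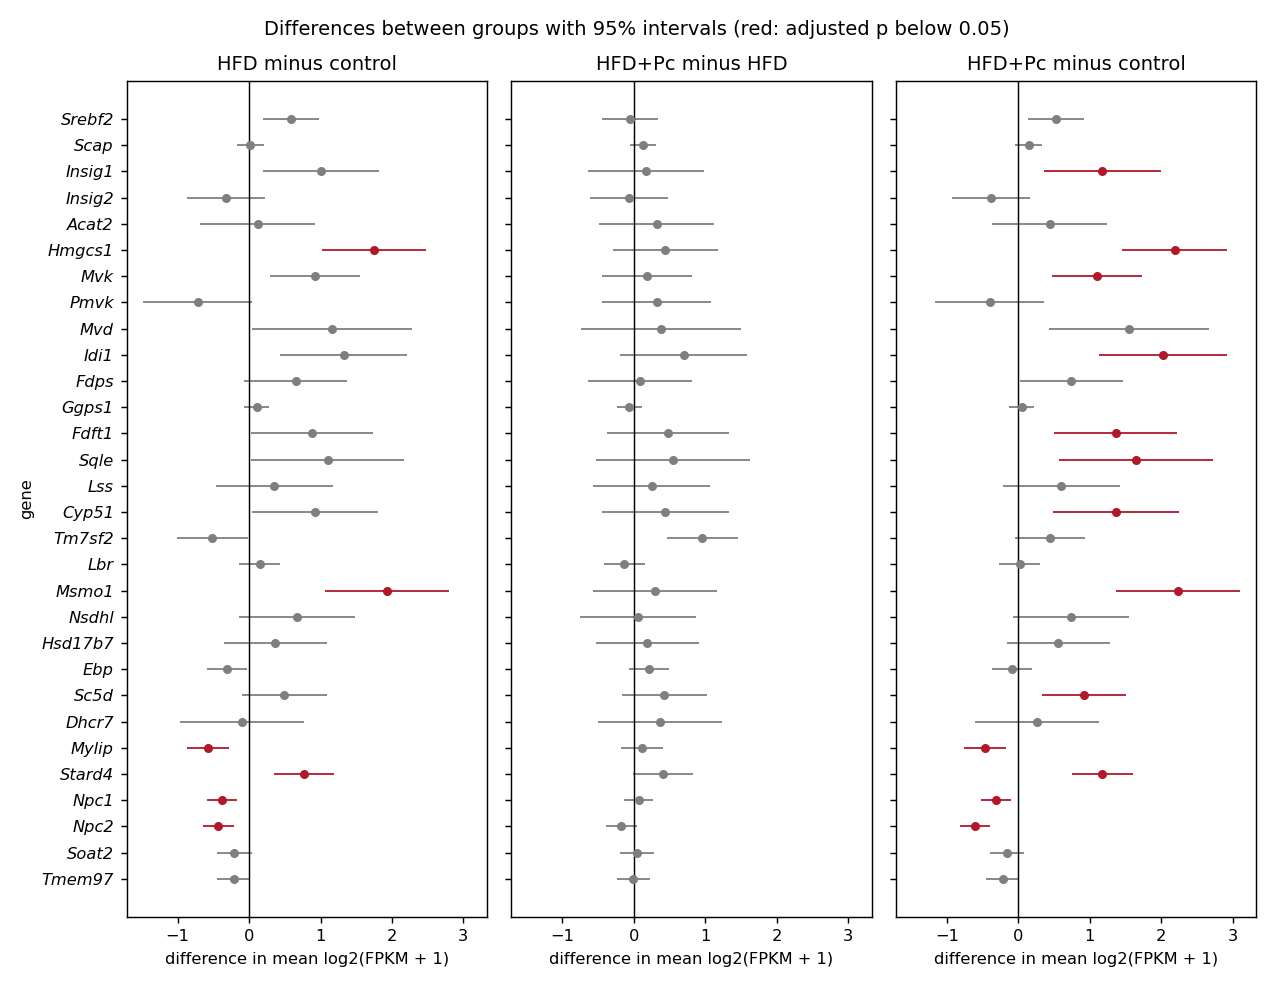
Differences between group means on the log2(FPKM + 1) scale (horizontal axis) for the 30 genes (vertical axis) in the 3 comparisons. Points are limma estimates, lines are 95% intervals, and red marks an adjusted p below 0.05. Red points are 3 to the right and 3 to the left in HFD minus control, none in HFD+Pc minus HFD, and 10 to the right and 3 to the left in HFD+Pc minus control.

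Among the 6 genes of uptake, movement and storage, 1 rose and 3 fell in HFD against control. In HFD+Pc against control 1 rose and 3 fell as well. Over all tested genes 4.61% rose and 5.35% fell in HFD, and 11.1% and 11.9% in HFD+Pc. *Stard4*, which carries sterol through the cytosol, rose. It was at 13.2, 9.07 and 10.7 FPKM in control, 18.5, 17.7 and 21.6 in HFD and 18.9, 30.3 and 29.9 in HFD+Pc, so no diet library reached down to control. The differences were 0.77 ± 0.19 and 1.18 ± 0.19 (limma adjusted p = 0.03697 and 0.00426). The HFD call missed the threshold when leaving out control replicates 1, 2 and 4 and HFD replicates 1, 2 and 3 (limma adjusted p up to 0.111), and the HFD+Pc call held in all 9 fits without 1 library. HFD+Pc differed from HFD in *Stard4* by 0.41 ± 0.19, with an interval of -0.015 to 0.83 (limma adjusted p = 0.334).

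*Mylip*, which encodes IDOL, a ubiquitin ligase that marks lipoprotein receptors for degradation and is induced by sterol-activated LXR, fell. Its level was 7.57, 8.59 and 9.51 FPKM in control, 4.92, 6.36 and 4.93 in HFD and 7.13, 5.37 and 5.33 in HFD+Pc, with no overlap between control and either diet group. The differences were -0.58 ± 0.13 and -0.47 ± 0.13 (limma adjusted p = 0.0274 and 0.0311). These calls were not held on leaving out control replicates 2 and 4 and HFD replicates 1 and 3 in HFD and without control replicates 2 and 4 and HFD+Pc replicates 3 and 4 in HFD+Pc (limma adjusted p up to 0.07903 and 0.106). *Npc1* and *Npc2*, the membrane and soluble proteins that release cholesterol from lysosomes, fell as well. *Npc2* was at 16.1, 14.7 and 17.6 FPKM in control, 11.6, 13.1 and 10.5 in HFD and 9.93, 10.3 and 10.6 in HFD+Pc. All diet libraries were below all control libraries (-0.43 ± 0.095 and -0.60 ± 0.095, limma adjusted p = 0.0257 and 0.00378). The HFD+Pc call held in all 9 fits without 1 library, whereas the HFD call was not held on leaving out control replicates 1 and 4 and HFD replicates 1 and 3 (limma adjusted p up to 0.0737). *Npc1* was at 12.8, 14.5 and 12.9 FPKM in control, 10.02, 9.67 and 10.5 in HFD and 9.87, 12.1 and 9.91 in HFD+Pc, again without overlap. It fell by 0.38 in HFD and by 0.31 in HFD+Pc (limma adjusted p = 0.03505 and 0.0383). These calls were not held on leaving out control replicates 1, 2 and 4 and HFD replicates 1, 2 and 3 in the first and without control replicates 1, 2 and 4, HFD replicates 1 and 2 and HFD+Pc replicates 1 and 4 in the second (limma adjusted p up to 0.113 and 0.127). Macrophages also express *Npc2*. The 12 Kupffer cell and macrophage markers had summed levels of 436 to 604 FPKM in control, 431 to 583 in HFD and 314 to 489.7 in HFD+Pc. None of the 12 was at 0, and their part in the result was not tested.

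*Soat2*, which esterifies cholesterol for storage and lipoproteins, lay between 12.3 and 17.6 FPKM over all libraries and did not pass (-0.21 ± 0.11 and -0.16 ± 0.11 against control, limma adjusted p = 0.246 and 0.315). *Tmem97*, a membrane protein that binds NPC1, was at 51.01, 45.2 and 51.4 FPKM in control, 43.2, 40.8 and 42.7 in HFD and 36.4, 44.04 and 46.4 in HFD+Pc. Its HFD libraries lay below control without passing (-0.21 ± 0.10, limma adjusted p = 0.207), and HFD+Pc against HFD gave an interval of -0.23 to 0.22. In 5 of these 6 genes HFD and control did not overlap, 1 higher and 4 lower. Over all 30 genes 10 were higher (33.3%, against 16.5% of all tested genes) and 5 lower (16.7%, against 16.4%). The 10 include *Fdps*, whose reads summed with its copies overlapped control. Between HFD+Pc and control 12 of the 30 were higher without overlap (against 22.1%) and 3 lower (against 20.8%), where 42.8% of all tested genes did not overlap.

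The median coefficient of variation of the 30 genes was 21.001% in control, 28.9% in HFD and 31.97% in HFD+Pc, beside 10.01%, 11.02% and 10.6% over all tested genes. The same libraries stood high or low across genes. HFD replicate 3 held the highest of the 3 HFD values in 23 of the 30 genes (76.7%, against 37.2% of all tested genes). HFD+Pc replicate 1 held the lowest of its group in 27 of 30 (against 41.3%), and HFD+Pc replicate 4 the highest in 26 of 30 (86.7%, against 32.1%). In control, replicate 2 was lowest in 18 of 30 (60.0%, against 32.9%). Genes that move together are not independent, and these shares describe the libraries with no test.

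**Figure D4:**
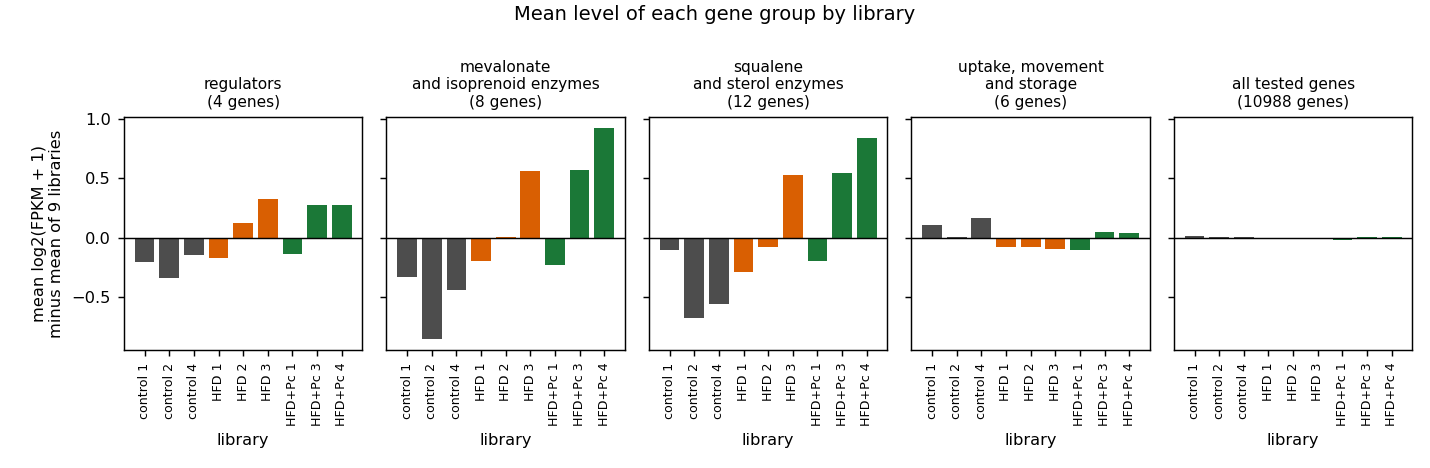
Mean log2(FPKM + 1) over the genes of each role, minus the mean of the 9 libraries (vertical axis), for each library (horizontal axis, control grey, HFD orange, HFD+Pc green), with all tested genes at the right. For the 12 enzymes from squalene onward HFD replicate 3 and HFD+Pc replicates 3 and 4 stand above 0.5 and HFD+Pc replicate 1 stands below 0.

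Averaged over the 8 mevalonate and isoprenoid enzymes, log2(FPKM + 1) relative to the mean of all libraries was -0.33, -0.86 and -0.44 in control replicates 1, 2 and 4, -0.20, 0.0053 and 0.56 in HFD replicates 1, 2 and 3, and -0.23, 0.57 and 0.92 in HFD+Pc replicates 1, 3 and 4. Over the 12 enzymes from squalene onward it was -0.11, -0.67 and -0.55 in control, -0.29, -0.081 and 0.53 in HFD and -0.20, 0.54 and 0.83 in HFD+Pc. HFD+Pc replicate 1 lay close to HFD replicate 1, and HFD replicate 3 close to HFD+Pc replicate 3. For the later enzymes control replicate 1 lay above HFD replicate 1 and HFD+Pc replicate 1. The mean over the 6 genes of uptake, movement and storage stayed between -0.10 and 0.16 in every library. It averages *Stard4*, which rose, with *Mylip*, *Npc1* and *Npc2*, which fell, so changes of opposite sign cancel in it. The mean over all tested genes stayed between -0.023 and 0.011. *Scd1*, the stearoyl-CoA desaturase, was high in HFD replicate 3 but did not separate HFD+Pc replicate 1 from its group: it was at 226, 241 and 3173 FPKM in HFD and 2609, 2077 and 2111 in HFD+Pc, below 4569, 4899.7 and 6869 in control. The counts of calls moved with single libraries. In HFD against control the 6 calls became 2 on leaving out control replicate 1 and 1 on leaving out control replicate 2 or 4. They became 2 on leaving out HFD replicate 1 or 3, and 3 on leaving out HFD replicate 2. Of all tested genes 9.97% passed in the main fit, and 3.20%, 3.05% and 5.30% without control replicates 1, 2 and 4. Without HFD replicates 1, 2 and 3 the shares were 4.42%, 5.56% and 5.31%. HFD+Pc replicate 1 enters neither group of HFD against control, but it enters the spread shared by the 3 groups. Without it the calls there went from 3 higher and 3 lower to 7 and 3, beside 9.97% and 10.3% of all tested genes. The differences of *Srebf2*, *Insig1*, *Mvk* and *Mvd*, which then passed, stayed at 0.59, 1.01, 0.93 and 1.17. Only the spread, the genes tested and the adjustment changed, and the part of each was not tested. The calls of HFD+Pc against control went from 10 higher and 3 lower to 13 and 2 without HFD+Pc replicate 1, 4 and 2 without HFD+Pc replicate 3, and 4 and 1 without HFD+Pc replicate 4. They went to 4 and 1 without control replicate 2, 5 and 1 without control replicate 4, and 6 and 2 without HFD replicate 2. Of all tested genes 23.1% passed in the main fit, and 19.1%, 12.8% and 16.9% without HFD+Pc replicates 1, 3 and 4. Without control replicates 2 and 4 and HFD replicate 2 the shares were 14.3%, 16.3% and 21.5%.

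The other genes of the pathway were read from 5 lists. For comparison, 4.61% of all tested genes rose and 5.35% fell in HFD against control, and 11.1% and 11.9% in HFD+Pc. In a list of the remaining synthesis steps and their electron carriers, 1 of 12 tested genes rose and 2 fell in HFD against control, with a median difference of 0.075, and 3 rose and 2 fell in HFD+Pc against control, with a median of 0.034. *Por*, the reductase that feeds electrons to CYP51 and SQLE among other enzymes, fell from 127 ± 3.33 to 60.4 ± 18.5 FPKM in HFD (-1.10 ± 0.19, limma adjusted p = 0.01298) and to 52.6 ± 5.48 in HFD+Pc (-1.26 ± 0.19, limma adjusted p = 0.00355). Both calls held in all 9 fits without 1 library. *Cyb5r3*, which reduces the cytochrome b5 used by MSMO1 and SC5D, also fell (-0.88 ± 0.16 and -0.61 ± 0.16, limma adjusted p = 0.0139 and 0.0226). The HFD+Pc call was not held on leaving out control replicates 1, 2 and 4 and HFD+Pc replicates 1 and 3 (limma adjusted p up to 0.0674). *Acat1*, the mitochondrial thiolase, rose in HFD and in HFD+Pc (0.40 ± 0.10 and 0.40 ± 0.10, limma adjusted p = 0.0387 and 0.0218). These calls were not held on leaving out control replicates 1, 2 and 4, HFD replicates 1 and 3 and HFD+Pc replicates 3 and 4 in the first and without control replicates 1 and 4 and HFD+Pc replicates 1 and 4 in the second (limma adjusted p up to 0.108 and 0.0699). In HFD+Pc, *Aacs*, a cytosolic ligase that turns acetoacetate into precursor for synthesis, rose from 1.58 ± 0.323 to 7.13 ± 4.07 FPKM and the cytochrome *Cyb5b* rose from 88.2 ± 19.3 to 143 ± 22.8 FPKM (limma adjusted p = 0.0317 and 0.0229). The *Aacs* call was not held on leaving out control replicates 1, 2 and 4, HFD replicate 2 and HFD+Pc replicates 3 and 4 and the *Cyb5b* call without control replicates 2 and 4 and HFD+Pc replicates 3 and 4 (limma adjusted p up to 0.109 and 0.08396).

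Of 15 tested genes of SREBP processing and sterol-regulated degradation, none rose and 2 fell in HFD against control (median -0.023). In HFD+Pc against control 1 rose and 3 fell (median -0.035). All tested genes had shares of 4.61% and 5.35% in HFD, and 11.1% and 11.9% in HFD+Pc. *Spring1*, which is needed for SREBP cleavage, fell from 2.64 ± 0.0954 to 1.5001 ± 0.355 FPKM in HFD (limma adjusted p = 0.02601, not held on leaving out control replicates 1, 2 and 4 and HFD replicate 2) and by 0.39 in HFD+Pc (limma adjusted p = 0.0456, not held on leaving out control replicates 1, 2 and 4, HFD replicate 1 and HFD+Pc replicates 1, 3 and 4). *Rnf145*, a sterol-responsive ubiquitin ligase, fell by 0.50 and by 0.48 (limma adjusted p = 0.0482 and 0.0329). These calls were not held on leaving out control replicates 1, 2 and 4, HFD replicates 1, 2 and 3 and HFD+Pc replicates 3 and 4 in HFD and without control replicates 1 and 4 and HFD+Pc replicates 3 and 4 in HFD+Pc. *Nr1h2*, which encodes the sterol-sensing receptor LXR-beta, fell from 12.2 ± 1.03 to 7.61 ± 0.181 FPKM in HFD+Pc (-0.61 ± 0.10, limma adjusted p = 0.00497), a call held in all 9 fits without 1 library. *Erlin1*, a membrane protein of the degradation machinery, rose by 0.49 in HFD+Pc (limma adjusted p = 0.0192, not held on leaving out control replicates 2 and 4 and HFD+Pc replicates 3 and 4).

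Of 14 tested genes of lipoprotein uptake, 1 rose and 2 fell in HFD against control (median -0.19). In HFD+Pc against control 1 rose and 3 fell (median -0.052). All tested genes had shares of 4.61% and 5.35% in HFD, and 11.1% and 11.9% in HFD+Pc. The heparan sulfate proteoglycans *Hspg2* and *Sdc1*, the second of which captures remnant lipoproteins on hepatocytes, fell in HFD by 0.58 and 0.78 (limma adjusted p = 0.0101 and 0.0199), the *Sdc1* call not held on leaving out control replicates 1 and 2 and HFD replicate 1. *Sort1*, a sorting receptor, rose by 0.46 in HFD (limma adjusted p = 0.0446, not held on leaving out control replicates 1, 2 and 4, HFD replicates 1, 2 and 3 and HFD+Pc replicate 4). In HFD+Pc *Hspg2* and the HDL receptor *Scarb1* fell by 0.36 and 0.55 (limma adjusted p = 0.02297 and 0.0326). These were not held on leaving out control replicates 1 and 2 and HFD+Pc replicates 1 and 3 for *Hspg2* and control replicates 2 and 4 and HFD+Pc replicates 1, 3 and 4 for *Scarb1*.

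Of 20 tested genes of sterol transport and esterification, 1 rose in HFD against control (median 0.066). In HFD+Pc against control 4 rose and 1 fell (median 0.071). All tested genes had shares of 4.61% higher and 5.35% lower in HFD, and 11.1% and 11.9% in HFD+Pc. *Lamp2*, a lysosomal membrane protein, rose from 74.98 ± 1.48 to 93.8 ± 1.69 FPKM in HFD and to 105 ± 6.93 in HFD+Pc (limma adjusted p = 0.0363 and 0.00426). This was the opposite direction to *Npc1* and *Npc2* of the same organelle. The HFD call of *Lamp2* was not held on leaving out control replicates 1, 2 and 4, HFD replicates 1, 2 and 3 and HFD+Pc replicate 3, and its HFD+Pc call held in all 9 fits. In HFD+Pc the sterol carriers *Scp2* and *Osbp* rose by 0.41 and 0.45 and *Stard5* fell by 0.36 (limma adjusted p = 0.01805, 0.0196 and 0.01803). They were not held on leaving out control replicates 2 and 4 and HFD+Pc replicate 3, without control replicates 2 and 4 and HFD+Pc replicates 3 and 4 and without control replicate 4 and HFD+Pc replicate 4. Of 11 tested genes of the isoprenoid side branches none passed in HFD against control by limma. None of the 11 had an unadjusted limma p under 0.05 there, against 3052 of all 10988. In HFD+Pc against control 2 of them rose (medians over the 11 of 0.0398 in HFD and 0.15 in HFD+Pc). They were the prenyltransferase subunit *Rabggta* and the ubiquinone side-chain enzyme *Pdss2* (0.34 and 0.34, limma adjusted p = 0.0427 and 0.0498). Neither call held on leaving out any library other than HFD+Pc replicate 1. None of these 72 tested genes passed by limma between HFD+Pc and HFD, against 0.628% of all tested genes. Of the 72, 9 had an unadjusted limma p under 0.05, against 1718 of all 10988.

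Sterol synthesis follows the time of day and feeding, and the time of collection is not given in the sources used here. Against control 4.61% of all tested genes rose and 5.35% fell in HFD, and 11.1% and 11.9% in HFD+Pc. Of 14 clock genes, 11 were tested, and against control 2 rose and 1 fell in HFD, and 2 rose and 1 fell in HFD+Pc. These 3 are named although they were chosen after their values were seen. The repressor *Nr1d1* rose by 0.93 and 0.79, *Nr1d2* by 0.69 and 0.77, and *Per1* fell by 1.03 and 1.10 (limma adjusted p = 0.0231, 0.0201, 0.0356, 0.0124, 0.0238 and 0.00916), and their part in the results on synthesis genes was not tested. The summed level of the clock genes was 50.5 to 66.3 FPKM in control, 64.1 to 67.5 in HFD and 59.8 to 64.8 in HFD+Pc. That sum adds genes that rose to 1 that fell, so it does not show whether the times of collection were alike. In HFD against control, 3 of 10 endothelial, 1 of 11 hepatocyte and 1 of 10 stellate cell markers fell, and 1 of 12 macrophage, 2 of 4 tested B and plasma cell and 1 of 2 tested adipocyte markers rose, with 0 of 2 tested bile duct markers changed. Between HFD+Pc and control, 2 endothelial, 2 macrophage, 2 hepatocyte and 4 stellate markers fell and 1 hepatocyte, 1 stellate and 1 adipocyte marker rose. In HFD+Pc against HFD no marker passed by limma, against 0.628% of all tested genes. There 6 of 12 macrophage and 6 of 11 hepatocyte markers had an unadjusted limma p under 0.05, against 1718 of all 10988 genes. All 12 macrophage markers had a lower mean in HFD+Pc than in HFD, and the part of these cell markers in the results was not tested. Of the 7 adipocyte markers, *Adipoq*, *Plin1*, *Retn* and *Lep* were at 0 in every control and HFD+Pc library. They were above 0 in HFD replicate 1, and *Plin1* and *Lep* in no other library. *Cfd* and *Cidea* lay above control without overlap in both diet groups. Their means in control, HFD and HFD+Pc were 0.081, 12.3 and 4.50 FPKM, and 0.032, 1.08 and 0.47 FPKM. *Fabp4* averaged 2.07, 2.08 and 1.36 FPKM in that order. The summed level of the 7 reached 29.2 FPKM in HFD replicate 1, of which *Cfd* was 21.8. That library was the lowest of HFD in the mean of the synthesis enzymes.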

How the data were processed

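Liver RNA-seq was analysed from 1 table of FPKM values deposited by the authors; the unit is given per the file headers. The submitters' processing notes name HISAT2 2.0.5 and the build GRCm39, and the counting tool and annotation are not given in the sources used here. Library strandedness is not given either. Groups follow the labels.

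Dividing low FPKM values by what 1 read adds gave whole numbers in 98.27% of 111617 values (tolerance 0.02), so reads could be recovered for 25491 of 26278 genes above 0. Recovered totals were 16459378 to 18832370 per library. FPKM is not a count, so log2(FPKM + 1) was tested with limma 3.58.1 (R 4.3.3, trend and robust estimation) on genes that reached 1 FPKM in 3 or more libraries. The fit was tested on simulated data. Intervals are 95% intervals of limma.

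Alternatives were a pseudocount of 0.1, a minimum of 0.1 FPKM, no filter, median-of-ratios scaling, 2 groups alone, plain eBayes, a replicate block, each library left out, and limma-voom on recovered reads. Near-identical transcripts were found with BLAST 2.17.0+ (at least 90% identity over at least 100 bases and 20% of the transcript). Promoters came from RefSeq on GRCm38.p6 by symbol and no coordinates were converted; tables were handled with Python 3.11.15.

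The members and lists were chosen with earlier results of these data known. Named were all 30 members, up to 3 genes per direction and comparison with the lowest adjusted p from each list, and *Scd1*, picked for its level in HFD replicate 3. Some list genes are counted but not reported by name here.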

Additional observations from a re-analysis of the deposited data

How the results depend on the processing

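Of the 30 genes, 6 passed in HFD against control by limma, against 9.97% of all tested genes. That count was 0 with no filter on low values, 2 with a replicate block and 1 to 10 when 1 library was left out. Of all tested genes 0.795%, 2.11% and 3.05% to 10.3% passed in those fits. Between HFD+Pc and HFD the count of 0 went to between 0 and 1 when 1 library was left out. Of all tested genes 0.628% passed there in the main fit and 0.0459% to 1.13% with 1 library left out. Between HFD+Pc and control the count of 13 was 5 with no filter, 8 with a minimum of 0.1 FPKM, 6 with a replicate block and 5 to 15 when 1 library was left out. Of all tested genes 23.1% passed there in the main fit, and 5.26%, 12.8%, 9.63% and 12.8% to 24.3% in those fits. Looser filters tested more genes, 26278 and 17488 in place of 10988. The cause of the changed counts was not tested for any of the alternatives. The alternative of limma-voom on recovered reads, chosen after seeing the data, gave 7, 0 and 10 calls. Of all genes tested that way 13.3%, 1.69% and 24.98% passed.

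The replicate numbers did not pair the libraries: deviations from group means correlated at -0.12 to 0.05 between libraries of the same number, and the labels tie the numbers to no batch or animal.

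Of 119 results, 21 changed sign under some alternative, none with a limma adjusted p below 0.05. With 1 library left out, the differences ranged in HFD against control from -0.038 to 0.059 for *Scap*, -0.21 to 0.32 for *Acat2*, -0.017 to 0.25 for *Lbr* and -0.45 to 0.19 for *Dhcr7*. They ranged in HFD+Pc against HFD from -0.20 to 0.14 for *Srebf2*, -0.051 to 0.58 for *Insig1*, -0.28 to 0.19 for *Insig2*, -0.089 to 0.52 for *Mvk*, -0.048 to 0.47 for *Fdps*, -0.055 to 0.65 for *Lss*, -0.011 to 0.78 for *Msmo1*, -0.20 to 0.35 for *Nsdhl*, -0.0047 to 0.22 for *Mylip*, -0.0198 to 0.11 for *Npc1*, -0.0036 to 0.14 for *Soat2* and -0.073 to 0.098 for *Tmem97*. The ranges in HFD+Pc against control were -0.0033 to 0.078 for *Ggps1*, -0.15 to 0.12 for *Lbr*, -0.16 to 0.021 for *Ebp* and -0.015 to 0.62 for *Dhcr7*. Signs in HFD+Pc against HFD also changed with the replicate block, to -0.034 for *Acat2*, -0.0076 for *Fdps*, -0.18 for *Nsdhl* and -0.056 for *Soat2*, with a pseudocount of 0.1, to -0.055 for *Fdps*, and with limma-voom, to -0.23 for *Fdps*, -0.0102 for *Nsdhl*, -0.0013 for *Npc1* and -0.024 for *Soat2*.

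With 3 libraries a group, differences smaller than the intervals given could not be resolved, and 3 reads in a gene of 1 kb correspond to 0.1604 to 0.179 FPKM.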
